A study of Mus musculus with 8 samples.

Results

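The mucins and trefoil factors of large bile ducts were examined as a set of 10 genes, of 46603 genes in the count table. Its members were set by name, with earlier results of these data known. It held the membrane-bound mucins Muc1, Muc4 and Muc20, the gel-forming mucins Muc5b and Muc6, the trefoil factors Tff1, Tff2 and Tff3, the mucin-folding enzyme Agr2 and the immunoglobulin receptor Pigr. Their RNA was measured in 8 libraries. Liver cells of 4 mice, named JV602, JV621, JV624 and JV6314, were sorted to give an EGFP-positive and an EGFP-negative library from each mouse. EGFP-positive cells are called liver label-retaining cells (LLRCs), and EGFP-negative cells are called non-LRC cells.

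All mice carried 1 copy each of the R26rtTA and H2B-EGFP alleles, on a mixed C57BL/6 and CBA background, and no library came from mice without them. The transactivator is driven from the ubiquitously active Rosa26 locus, so the label is not limited to bile ducts. Doxycycline, which switches the histone-bound EGFP on, was given from birth to postnatal day 5. The label is then diluted at each division, and livers were dissociated and sorted at 8 weeks of age. Both fractions were EpCAM-positive and CD45-negative by the sort. According to the study, hematopoietic cells of these mice also express the transgene without doxycycline.

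Mucins are long glycoproteins that carry dense O-linked sugar chains. Membrane-bound mucins line the surface of duct cells, while gel-forming mucins are secreted and build mucus. Trefoil factors are small secreted proteins that are released together with gel-forming mucins and take part in epithelial repair. Agr2 is a disulfide isomerase of the endoplasmic reticulum that mucin-producing cells need to fold mucins. Pigr carries dimeric IgA across the epithelium into bile. In the liver, mucus is made mainly by the peribiliary glands, the large ducts and the gallbladder, whereas small ducts make little of it.

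The promoter sequences of Muc1 and Pigr are shown because these were the members read at a high level in every library. The RefSeq promoter table used here, on build GRCm38.p6, was matched for 6 of the 10 members. The 250 bases before the start of each gene are printed on its coding strand, which is the plus strand for both. Capitals mark matches, on either strand, to a TATA box (TATAAA), an E-box (CACGTG) or a GC box (GGGCGG). The Muc1 window lies at chr3:89228806-89229055 and the Pigr window at chr1:130826434-130826683.
Muc1: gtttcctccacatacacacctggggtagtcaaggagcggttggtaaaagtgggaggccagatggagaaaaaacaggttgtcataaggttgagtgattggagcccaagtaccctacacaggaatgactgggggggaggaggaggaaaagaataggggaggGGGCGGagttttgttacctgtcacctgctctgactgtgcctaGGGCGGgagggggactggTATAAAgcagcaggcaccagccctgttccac
Pigr: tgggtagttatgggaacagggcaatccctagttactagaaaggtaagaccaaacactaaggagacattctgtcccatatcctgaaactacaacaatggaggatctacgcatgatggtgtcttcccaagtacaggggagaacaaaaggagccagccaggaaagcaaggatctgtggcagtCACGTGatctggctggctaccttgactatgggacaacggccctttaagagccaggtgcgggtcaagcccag
The Muc1 window held a TATAAA match 31 to 26 bases before the start and 2 GGGCGG matches, at 91 to 86 and at 49 to 44 bases. The Pigr window held 1 match, a CACGTG 71 to 66 bases before the start. Over 32851 promoter windows of this length, TATAAA was present in 12.4%, CACGTG in 6.02% and GGGCGG in 32.7%.

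The libraries held between 4670132 and 9851819 counts, with the LLRC library deeper than the non-LRC library in each mouse. Levels are given as CPM, which are counts relative to the size of each library after scaling by trimmed means of M-values (TMM). A floor of 3 counts stood for 0.291 to 0.626 CPM, which covers counting error only. Cholangiocyte markers other than Spp1 summed to 3500 to 3730 CPM in LLRC libraries and to 2880 to 3450 CPM in non-LRC libraries. All 13 listed cholangiocyte markers were tested, 12 had a higher estimate in LLRCs, and their median log2 fold change was 0.19. Endothelial markers summed to 22.0 to 47.1 CPM in LLRC and 166 to 572 CPM in non-LRC libraries, and for all 9 markers tested the highest LLRC library was under the lowest non-LRC library. Hepatocyte markers reached 7940 CPM, stellate and fibroblast markers 2550 CPM, mesothelial markers 929 CPM, and gastric and intestinal markers 40.3 CPM in the non-LRC library of JV624. Each of these was the highest of the 8 libraries. Hepatocyte markers summed to 3070 to 3430 CPM in LLRC and 2180 to 7940 CPM in non-LRC libraries, with 5820 CPM in that of JV6314. Stellate and fibroblast markers summed to 82.7 to 575 CPM in LLRC and 537 to 2550 CPM in non-LRC libraries, with 1970 CPM in that of JV6314. Pancreatic acinar markers stood at 2180 CPM in the non-LRC library of JV6314 and at no more than 24.2 CPM elsewhere. Xist was read in 1 library, the LLRC library of JV621, with 120 counts, while the non-LRC library of that mouse had 0. The Y-linked Ddx3y had counts in all 8 libraries, with 1215 in the LLRC library of JV621. Whether the LLRC library of JV621 holds RNA of a single animal could not be settled from the labels. Without it, the log2 fold change between the fractions was 0.18 for Muc1, 0.18 for Pigr and -0.55 for Tff2. Leukocyte markers summed to 40.4 to 75.7 CPM in LLRC and 45.5 to 89.8 CPM in non-LRC libraries, B and plasma cell markers to at most 3.55 CPM and tuft cell markers to at most 31 CPM. Of 4 leukocyte markers tested, 3 had a lower estimate in LLRCs and 1, Ptprc, the CD45 gene, a higher one. Ptprc stood at 0.485 to 6.55 CPM in LLRC and 0.0 to 1.38 CPM in non-LRC libraries (log2 fold change 3.27, adjusted p = 0.957, edgeR).

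**Figure D1:**
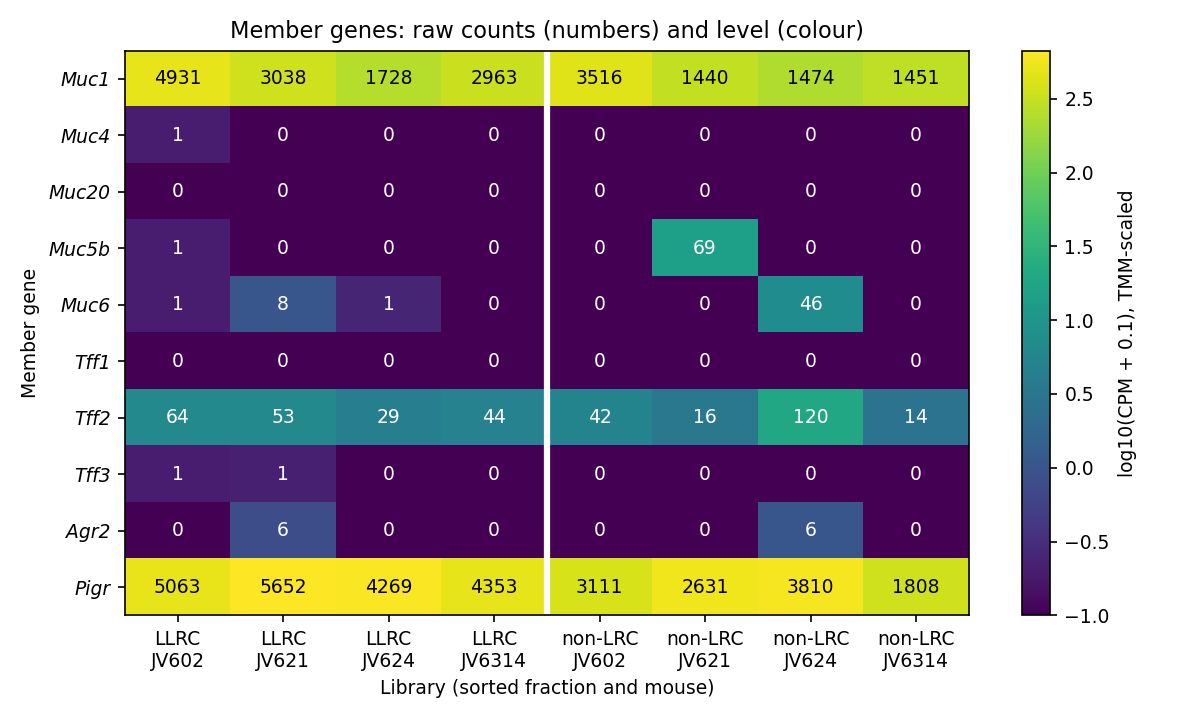
Raw counts of the 10 member genes (numbers in the cells) in the 8 libraries, with 4 LLRC libraries on the left and 4 non-LRC libraries on the right. Colour gives log10 of CPM plus 0.1; Muc1 and Pigr are bright in all libraries, Tff2 is intermediate, and the 69 counts of Muc5b and 46 counts of Muc6 stand in single non-LRC libraries.

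The comparison of LLRCs with non-LRC cells asks whether the slowly dividing biliary cells differ from other EpCAM-positive cells in these mucosal genes. Muc1 and Pigr were abundant in both fractions, Tff2 was low but present in all 8 libraries, and the other 7 members did not reach the expression filter. The 3 members that passed it are not the whole set. Of these 3, none passed edgeR's quasi-likelihood test between the fractions at an adjusted threshold of 0.05, and 0.0% of the 13605 genes tested did (702 at an unadjusted p under 0.05). Muc1 and Pigr had a higher CPM in the LLRC library in 4 of 4 mice, as did 7.74% of all tested genes. None of the 3 members had LLRC values separated from the non-LRC values, against 4.06% of all tested genes. In sorted populations, fewer cells of a type and less RNA per cell cannot be told apart.

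Muc1 encodes a membrane-bound mucin of the apical surface of duct cells. The gene (ENSMUSG00000042784) lies on chromosome 3 of GRCm38, from 89229057 to 89233381 on the plus strand. In LLRCs, Muc1 stood at 478 CPM in JV602, 359 in JV621, 254 in JV624 and 329 in JV6314, from 4931, 3038, 1728 and 2963 counts. In the non-LRC libraries of the same mice it stood at 440, 301, 233 and 286 CPM, from 3516, 1440, 1474 and 1451 counts. The mice stood in the same order in both fractions, with JV602 highest and JV624 lowest, and the groups overlapped. The LLRC mean was 355 ± 93.1 CPM and the non-LRC mean 315 ± 88.5 CPM (SD, n = 4). The log2 fold change was 0.17 (standard error 0.30, adjusted p = 1.0, edgeR). With 1 library left out it ranged from 0.00, without the LLRC library of JV602, to 0.37, without the non-LRC library of that mouse, and for JV624 it was 0.31 without the LLRC and 0.05 without the non-LRC library.

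Within mice, the log2 ratio of LLRC to non-LRC for Muc1 was 0.12 in JV602, 0.26 in JV621, 0.13 in JV624 and 0.20 in JV6314. Its mean was 0.18 and its SD 0.07, and 0.0441% of the tested genes had a smaller SD of this ratio. That share was not matched for abundance, and Muc1 ranked 343 of the 13605 tested genes by mean CPM. For Pigr, which ranked 199, the share was 0.823%. The mean log2 level of Muc1 ranged over 0.92 between the mice. Thus the span of Muc1 between mice was larger than its ratio between fractions in any mouse. A test of the mouse as a term, chosen after seeing the data, gave an adjusted p of 0.981 for Muc1 (edgeR), and 0.0% of the tested genes passed it. A larger range between mice was seen in 66.3% of the tested genes. With libraries scaled to 12 cholangiocyte markers, also chosen after seeing the data, the fold change of Muc1 between fractions was 0.01 on the log2 scale.

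**Figure D2:**
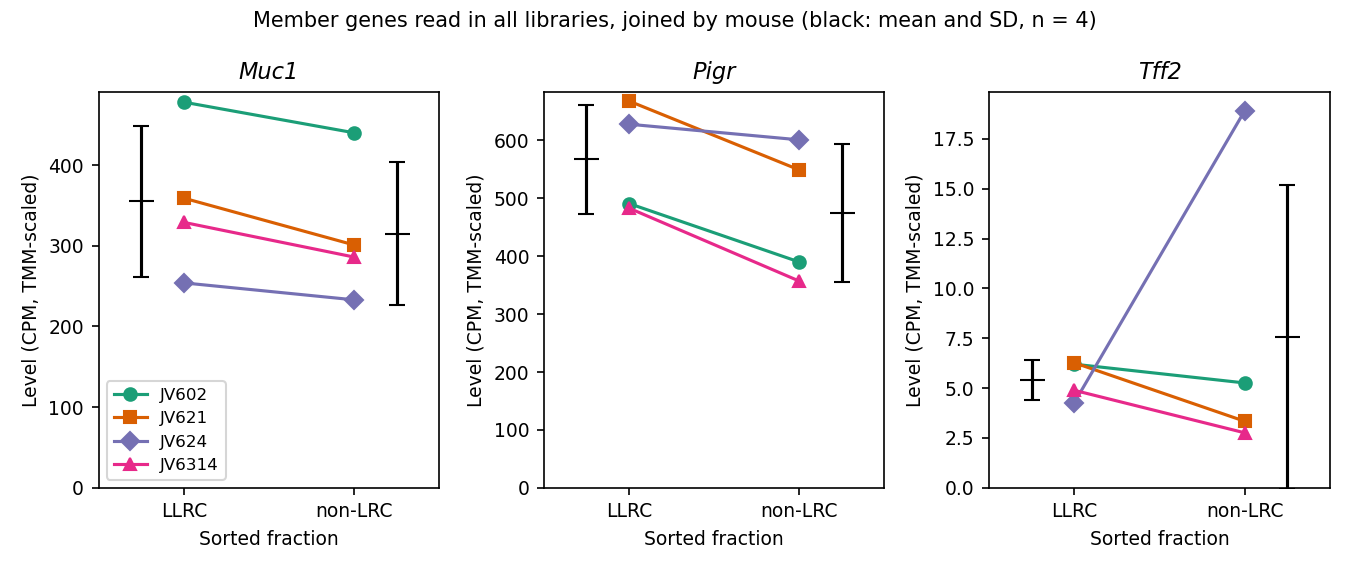
Levels of Muc1, Pigr and Tff2 in CPM (axes from 0) in the LLRC and non-LRC library of each mouse, with a line joining the libraries of a mouse and black marks for the mean and SD (n = 4). The lines of Muc1 run almost in parallel, and Tff2 in JV624 goes from 4.27 CPM in the LLRC library to 18.9 CPM in the other.

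The genes closest to Muc1 by the Pearson correlation of log2 CPM over the 8 libraries were Epb41l1 (r = 0.978), Tef (r = 0.93) and St3gal4 (r = 0.911). Epb41l1 encodes a membrane cytoskeleton protein, Tef a circadian transcription factor and St3gal4 a sialyltransferase. Each was highest in the mouse JV602 in both fractions. Tef stood at 61.8 and 53.9 CPM in the LLRC and non-LRC library of JV602, and at 9.56 and 9.0 CPM in those of JV624. The 8 libraries share mice in pairs, so they are not independent points, and these correlations are a description.

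Muc4 and Muc20, the other membrane-bound mucins of the set, were not detectable at this depth. Muc4 (chromosome 16, 32735886 to 32782391) had 1 count in the LLRC library of JV602 and 0 in the other 7 libraries. Muc20 (chromosome 16, 32777419 to 32797435) had 0 counts in all 8. These genes lie on opposite strands and share 627 exon bases, which is 15.6% of the exon bases of Muc20. Counting was without strand, so reads in that stretch cannot be given to either gene.

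Pigr (ENSMUSG00000026417, chromosome 1, 130826684 to 130852249, plus strand) was the most abundant member by mean CPM over the 8 libraries. In the non-LRC library of JV602, Muc1 was above it, at 440 against 390 CPM. In LLRCs Pigr stood at 491, 668, 628 and 483 CPM in JV602, JV621, JV624 and JV6314, from 5063, 5652, 4269 and 4353 counts. In non-LRC cells it stood at 390, 549, 601 and 357 CPM, from 3111, 2631, 3810 and 1808 counts. JV621 and JV624 were the high mice in both fractions, and the groups overlapped. The means were 568 ± 94.5 CPM and 474 ± 119 CPM (SD, n = 4), and the log2 fold change was 0.26 (standard error 0.27, adjusted p = 1.0, edgeR). With 1 library left out it ranged from 0.15, without the non-LRC library of JV6314, to 0.39, without that of JV624. The ratio within mice was smallest in JV624, at 0.06, and largest in JV6314, at 0.44 on the log2 scale. With libraries scaled to cholangiocyte markers the fold change was 0.08.

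Per kilobase of annotated exon, Muc1 and Pigr were close to each other, and their order went with the mouse. The level of Muc1 over that of Pigr was 1.67 in LLRCs and 1.94 in non-LRC cells of JV602, and 1.17 and 1.38 in those of JV6314. In JV621 the ratio was 0.922 and 0.941, and in JV624 it was 0.692 and 0.666. Thus Muc1 exceeded Pigr in both fractions of JV602 and JV6314 and was below it in both fractions of JV621 and JV624. Over the 8 libraries the log2 levels of Muc1 and Pigr correlated at r = -0.345, and each pair of libraries shares a mouse.

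**Figure D3:**
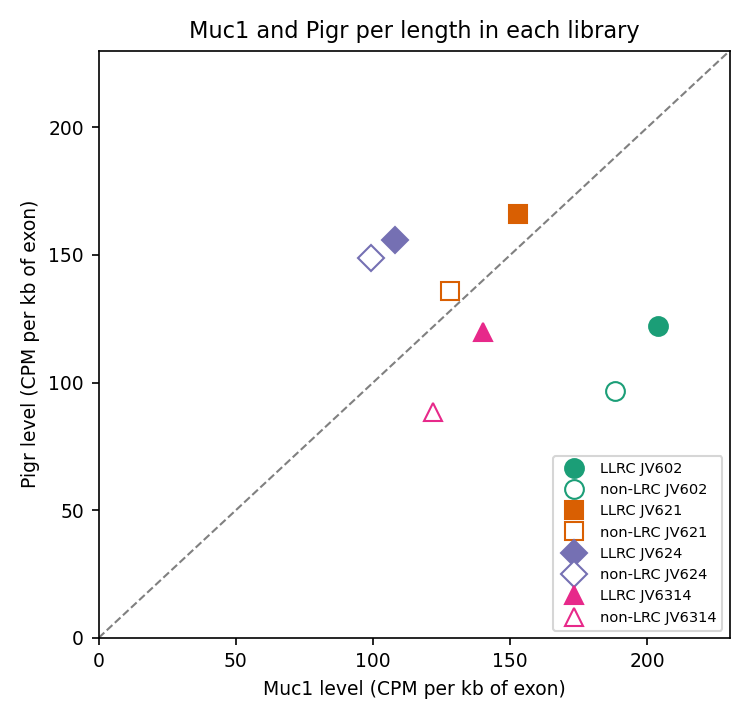
Levels of Muc1 (x axis) and Pigr (y axis) in CPM per kilobase of exon, with filled symbols for LLRC and open symbols for non-LRC libraries and 1 colour and shape per mouse. The dashed line marks equal levels; both libraries of JV602 and JV6314 lie below it and both of JV621 and JV624 above it.

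Levels were also set against Epcam, the transcript of the protein used in the sort. Muc1 had 81.6 and 83.3 counts per 100 counts of Epcam in the LLRC and non-LRC libraries of JV602, 55.2 and 39.3 in JV621, 46.2 and 53.8 in JV624, and 60.1 and 59.9 in JV6314. On this scale LLRCs were higher in JV621 and JV6314 and lower in the other mice. Pigr had 83.8 and 73.7 counts per 100 of Epcam in JV602, 103 and 71.8 in JV621, 114 and 139 in JV624, and 88.3 and 74.7 in JV6314. Here the non-LRC library was the higher one in JV624.

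The genes closest to Pigr were Mdm1 (r = 0.972), C1qtnf12 (r = 0.958) and F3 (r = 0.949), over the same 8 libraries. F3 encodes tissue factor, the starter of the coagulation cascade. It stood at 113, 190, 210 and 133 CPM in LLRCs and at 102, 147, 215 and 79.9 CPM in non-LRC cells of JV602, JV621, JV624 and JV6314. JV621 and JV624 were its high mice, as for Pigr.

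Among the trefoil factors, Tff2 was the one read in all libraries. The 3 genes lie within 40.0 kb on chromosome 17 (31125306 to 31165277), and Tff2 (ENSMUSG00000024028, 31141049 to 31144282, minus strand) is the middle one. Tff2, known from the mucous neck cells of the stomach, stood at 6.2, 6.27, 4.27 and 4.89 CPM in LLRCs of JV602, JV621, JV624 and JV6314, from 64, 53, 29 and 44 counts. In non-LRC cells it stood at 5.26, 3.34, 18.9 and 2.76 CPM, from 42, 16, 120 and 14 counts. The LLRC libraries lay close together, and the non-LRC library of JV624 stood above all others. That library also had the highest hepatocyte, stellate and mesothelial marker sums, whose part in the Tff2 value was not tested.

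Tff2 averaged 5.41 ± 0.992 CPM in the LLRC libraries and 7.58 ± 7.65 CPM in the non-LRC libraries (SD, n = 4). The log2 fold change was -0.49 (standard error 0.67, adjusted p = 1.0, edgeR). Without the non-LRC library of JV624 the non-LRC mean was 3.79 CPM and the log2 fold change was 0.50. With the mouse as a block the log2 fold change was 0.01 (standard error 0.64). Per kilobase of exon, Tff2 stood between 4.73 and 32.4 CPM and below both Muc1 and Pigr in all 8 libraries. The sign of the Tff2 difference rested on 1 library. LLRCs were higher in 3 of 4 mice, with log2 ratios of 0.23, 0.86 and 0.77 in JV602, JV621 and JV6314, and -2.08 in JV624.

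**Figure D4:**
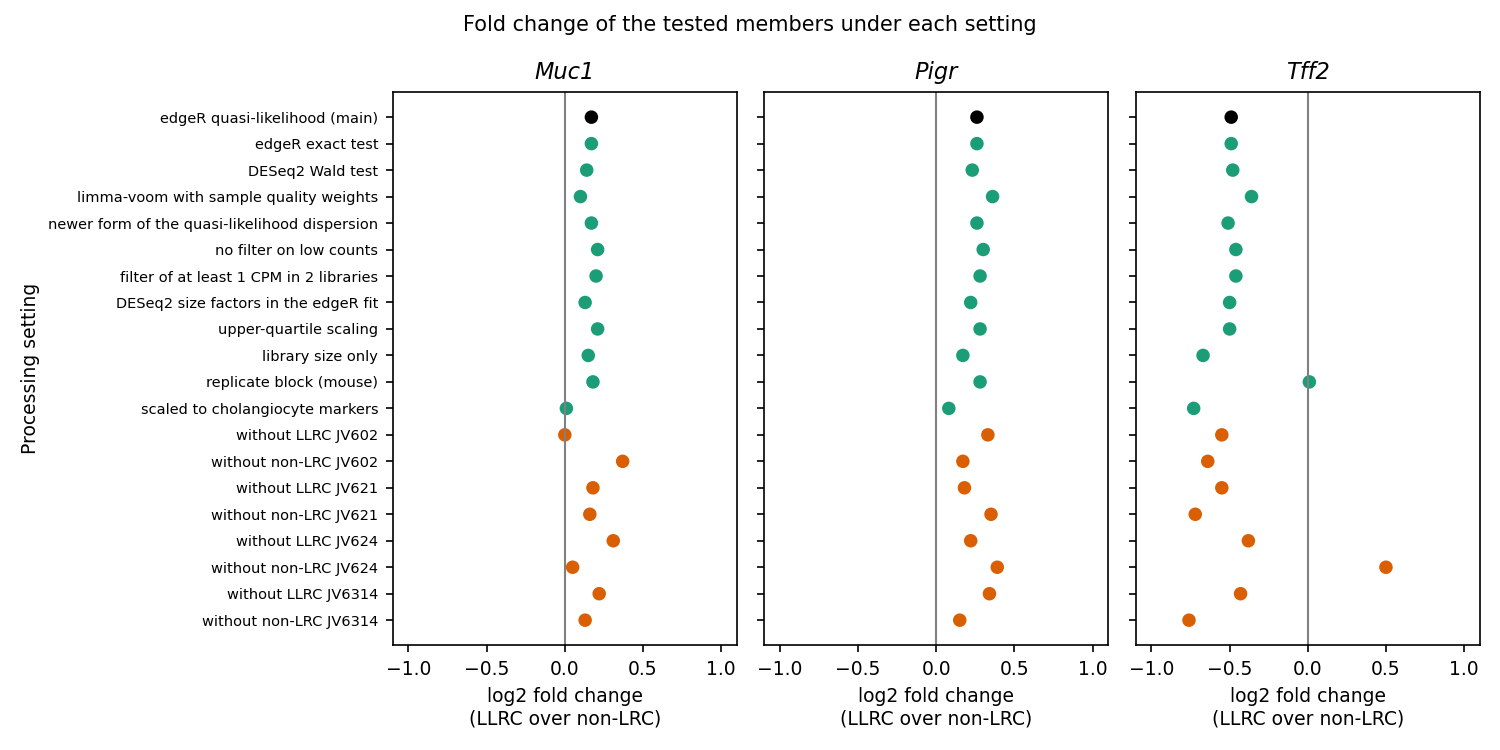
Log2 fold change (LLRC over non-LRC) of Muc1, Pigr and Tff2 under the main setting (black), other tools, filters and scalings (green) and with 1 library left out (orange). Pigr stays above 0 under all settings shown, Muc1 reaches 0 without the LLRC library of JV602, and Tff2 goes from -0.49 to 0.50 without the non-LRC library of JV624.

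The genes closest to Tff2 over the 8 libraries were Cltb (r = 0.97), which encodes a clathrin light chain, Gm2451 (r = 0.96) and Gpx4 (r = 0.951), a glutathione peroxidase. All were highest in the non-LRC library of JV624, where Gpx4 stood at 62.0 CPM against at most 33.7 CPM in the other libraries. Tff1, a trefoil factor of gastric surface cells, had 0 counts in all libraries. Tff3, the trefoil factor of goblet cells, had 1 count each in the LLRC libraries of JV602 and JV621. Tff1 and Tff3 were not detectable at this depth, and 31.4% of the exon bases of Tff1 overlap an annotated antisense gene.

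The gel-forming mucins were read in few libraries. Muc5b (ENSMUSG00000066108, chromosome 7, 141839070 to 141873084) encodes the main gel-forming mucin of airways and the gallbladder. It had 69 counts in the non-LRC library of JV621, 1 in the LLRC library of JV602 and 0 in the other 6. The 69 counts stood for 14.4 CPM, with a 95% Poisson interval of 11.2 to 18.2 CPM for counting error. That library had the fewest detected genes, 14234, and the highest sum of endothelial markers. It also had the highest sum of the listed large-duct and gallbladder genes, 507 CPM against 209 to 290 CPM elsewhere. That sum included 194 CPM of Sox17, which stood at no more than 9.47 CPM elsewhere, and 150 CPM of Aqp1. The part of these traits in the Muc5b reads was not tested.

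Muc6 (ENSMUSG00000048191, chromosome 7, 141633456 to 141655319), the mucin of gland cells, had 46 counts (7.26 CPM) in the non-LRC library of JV624. A further 8 counts came from the LLRC library of JV621, 1 each in the LLRC libraries of JV602 and JV624, and 0 in the other 4. Agr2 (chromosome 12, 35992907 to 36004087) was read 6 times in each of 2 libraries, those of JV621 LLRCs and JV624 non-LRC cells, and had 0 counts in the other 6. Thus the libraries with more than 1 count of Muc6 were the same 2 that held Agr2. These 2 libraries were also the one with Xist reads and the one with the highest hepatocyte, stromal and mesothelial marker sums. The part of those cells or reads in the Muc6 and Agr2 counts was not tested. Without the LLRC library of JV621, both Muc6 and Agr2 kept more than 1 count in 1 library, the non-LRC library of JV624. Of 12 gastric and intestinal markers, 5 (Gkn1, Gkn2, Cdx1, Cdx2 and Alpi) were at 0 in all libraries. Fabp2, a fatty acid-binding protein of enterocytes, had 122 counts and Gkn3, a gastrokine, 34 counts in the non-LRC library of JV624, the highest of the 8 libraries for both. Other markers of this list peaked elsewhere. Atp4a was read in all 8 libraries and Vil1 in 7 of them, and both were highest in the non-LRC library of JV6314. Sis was highest in the non-LRC library of JV621, with 31 counts, and had 0 in that of JV624.

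Muc5b and Muc6 lie at the ends of a mucin cluster of 240.0 kb, with Muc2 and Muc5ac between them. Muc2, the mucin of intestinal goblet cells, had no more than 0.197 CPM in any library, and Muc5ac, that of gastric surface cells, no more than 0.25 CPM. Muc5b and Muc6 were read in different non-LRC libraries. With nearly all reads of each in 1 or 2 libraries, no test between the fractions was informative for Muc5b, Muc6 or Agr2. For the members read in all libraries, an exact two-sided permutation test of CPM, which does not use the pairing by mouse and whose smallest p is 0.0286, gave 0.543 for Muc1, 0.257 for Pigr and 0.943 for Tff2.

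Genes with related roles were then examined from lists, none of whose genes passed edgeR's quasi-likelihood test (0.0% of all genes did). Of the 16 genes followed through the other tools and settings run, Emcn and Aqp1 passed under some. The remaining named genes were not followed in this way. For the lists that follow, medians stand beside a median log2 fold change of -0.01 over all tested genes. Of 11 other mucins, 9 were matched, and 1 reached the filter. This was Emcn, the sialomucin of endothelial cells, with a mean of 1.83 CPM for LLRCs and 43.5 CPM for non-LRC cells (log2 fold change -4.56, standard error 0.97, adjusted p = 0.181, edgeR). Emcn passed in the edgeR exact test (adjusted p = 0.000917) and in DESeq2 (adjusted p = 4.85e-05). Its log2 fold change was -3.24 without the non-LRC library of JV6314, which held 122 CPM, and -5.32 without the LLRC library of JV621. The LLRC and non-LRC values of Emcn did not overlap, as for the endothelial markers. Muc13, a membrane-bound mucin of the gut, stood at 2.96 CPM in the non-LRC library of JV6314, which held the acinar markers, and at 0.828 CPM or less elsewhere.

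The enzymes of mucin-type O-glycosylation, which build the sugar chains of mucins, were represented by 12 tested genes of 23. Of these, 4 had a higher and 8 a lower estimate in LLRCs, and the median log2 fold change was -0.16. With the mouse as a block, the estimate of Galnt10 turned from -0.14 to 0.17. C1galt1, the core 1 synthase, averaged 154 CPM for LLRCs and 150 CPM for non-LRC cells (log2 fold change 0.04, standard error 0.77), a sign that turned under 3 of the scalings and tools run and in 5 of the 8 fits without a library. It was 1.49 with limma (adjusted p = 0.683) and 0.68 with the mouse as a block. Its chaperone C1galt1c1 stood at 103 and 117 CPM (-0.18, standard error 0.25). Galnt11, which adds the first sugar, stood at 51.4 and 76.2 CPM (-0.57, standard error 0.52). Without the non-LRC library of JV621, which held 144 CPM of Galnt11, its log2 fold change was -0.05, and C1galt1 stood at 1.32 without the same library.

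Mucous cell regulators and secretory products had 12 tested genes of 17, with 5 higher and 7 lower and a median log2 fold change of -0.21. With the mouse as a block, the estimate turned from -0.9 to 0.1 for Ern1 and from -0.11 to 0.2 for Creb3l4. The most abundant were endoplasmic reticulum chaperones and their regulator, which all secretory cells use. Pdia3 averaged 1890 CPM for LLRCs and 1690 CPM for non-LRC cells, Hspa5 at 777 and 721 CPM, and Xbp1 at 339 and 327 CPM. Their log2 fold changes were 0.16, 0.11 and 0.05, and each was below 0 when libraries were scaled to cholangiocyte markers. Foxa1, a forkhead transcription factor of endoderm, was the tested gene of this list whose groups did not overlap. It stood at 37.3, 67.8, 119 and 40.7 CPM in LLRCs and at 27.2, 3.76, 26.4 and 21.1 CPM in non-LRC cells of JV602, JV621, JV624 and JV6314 (log2 fold change 1.75, standard error 0.62, adjusted p = 0.778, edgeR). Spdef, a master factor of goblet cells, had 3 counts in the LLRC library of JV602 and 7 in that of JV6314 and 0 elsewhere. Ern2, the stress sensor particular to mucous epithelia, had 0 counts in all libraries.

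Mucosal defence genes had 3 tested of 14, all with a lower estimate in LLRCs and a median log2 fold change of -0.48. Slpi, a secreted protease inhibitor, stood at 4.27, 18.5, 7.35 and 23.0 CPM in LLRCs of JV602, JV621, JV624 and JV6314, and at 0.0, 0.0, 207 and 44.2 CPM in non-LRC cells. Its log2 fold change was -2.24 (standard error 1.74, adjusted p = 1.0, edgeR) and turned to 1.22 with the mouse as a block. Without the non-LRC library of JV624 the Slpi value was -0.15. The 5 mesothelial markers summed to 929 and 794 CPM in the non-LRC libraries of JV624 and JV6314, where Slpi was highest, and to 275 to 506 CPM in the other 6. Upk1b made up 414 and 631 CPM of these 2 sums and stood at 237 to 477 CPM in the other 6 libraries. Msln stood at 193 and 65.5 CPM and Upk3b at 197 and 83.1 CPM in those 2 non-LRC libraries. Lrrn4 stood there at 76.4 and 13.8 CPM, and Wt1 at 49.6 and 0.197 CPM. For these last 2 genes the LLRC library of JV621, at 20.2 and 9.58 CPM, was above the non-LRC library of JV6314. The part of the mesothelial markers in the Slpi values was not tested. Lcn2 averaged 43.2 CPM for LLRCs and 52.5 CPM for non-LRC cells, and Wfdc2 at 9.78 and 13.7 CPM. Jchain, which joins the IgA dimers that Pigr carries, and Mzb1 of plasma cells were at 0 in all libraries, and Igha had no more than 1 count in any.

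Large-duct and gallbladder genes had 7 tested of 10, with 4 higher and 3 lower and a median log2 fold change of 0.07. Cftr, the chloride channel of duct cells, stood at 84.5, 158, 218 and 134 CPM in LLRCs and at 89.4, 68.3, 21.3 and 40.8 CPM in non-LRC cells of JV602, JV621, JV624 and JV6314 (log2 fold change 1.43, standard error 0.47, adjusted p = 0.688, edgeR). Ano1, a chloride channel activated by calcium, stood at 75.8 and 72.4 CPM (log2 fold change 0.07, below 0 when scaled to cholangiocyte markers). Aqp1, a water channel that endothelial cells also use, averaged 5.89 CPM for LLRCs and 99.5 CPM for non-LRC cells (log2 fold change -4.07, adjusted p = 0.0809, edgeR), and the groups did not overlap. Aqp1 passed in the edgeR exact test (adjusted p = 1.67e-07), in DESeq2 (adjusted p = 1.68e-09) and with the newer quasi-likelihood dispersion of edgeR (adjusted p = 0.0222). It also passed in edgeR without a filter on low counts (adjusted p = 0.049) and when non-LRC JV602 was left out (adjusted p = 0.0378).

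Which library was highest was counted for the 57 genes of the members and related lists that had more than 3 counts in any library. The non-LRC library of JV621 was highest for 13 (22.8%), Muc5b among them, and for 22.6% of all tested genes. The non-LRC library of JV624 was highest for 12 (21.1%), with Muc6, Tff2 and Agr2 among them, and for 17.4% of all tested genes. Both shares lay near those of all tested genes. The 57 genes, unlike the tested genes, include some below the expression filter, so the shares are not strictly alike.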

How the data were processed

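RNA of the sorted cells was sequenced by the authors on a HiSeq instrument. The aligner is not given in the sources used here. The authors deposited raw counts of reads for each gene. They made them with HTSeq in union mode, unstranded, over Ensembl exons (GRCm38.p4). The authors' table of their own edgeR 3.2.4 comparison holds fold changes and p-values and was not used. Columns were tied to samples by the labels. Of 46603 identifiers, 46005 were given a symbol through GENCODE M21 (GRCm38) or a name table, and 598 were not.

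Genes were filtered with filterByExpr, scaled by TMM and tested with edgeR 4.0.16 (quasi-likelihood, R 4.3.3) with no term but the group and Benjamini-Hochberg adjustment at 0.05. CPM use TMM-scaled library sizes, and log2 CPM a prior count of 2. Levels per kilobase use the merged exons of each gene in GENCODE, which need not be the exons counted. DESeq2 1.42.0, limma 3.58.1, other filters and scalings, a block for the mouse and fits without 1 library were alternatives. The labels give both libraries of a mouse to the same animal, so they are paired, although Xist was read in 1 of the libraries of JV621. Across genes, the correlation of their deviations from group means was 0.0961 in JV602, 0.0737 in JV621, 0.00334 in JV624 and 0.171 in JV6314. With 1 LLRC and 1 non-LRC library from each of 4 mice, p-values measure the spread between mice and sorts. The main test does not use the pairing, so differences between mice that both fractions share stay in its error. With the mouse as a block the log2 fold change was 0.18 (standard error 0.22) for Muc1 and 0.28 (standard error 0.23) for Pigr.

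The members and lists were chosen with earlier results of these data known. Named genes were all members, the 3 most abundant genes of each related list and any past the threshold, and the 3 genes closest to each tested member. Other genes were named after their values were seen. Muc16 and Muc21 were not analysed here. On simulated data for this comparison, in which 200 of 13605 genes had a log2 change of 3, the test recovered 200, with 9 false calls, at a dispersion of 0.1 and 68, with 4 false calls, at the dispersion of these libraries. With the mouse as a block it recovered 200 with 4 false calls and 24 with 1. The simulated data held no differences between mice, so they cannot show what the block does in paired libraries.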

Additional observations from a re-analysis of the deposited data

Results flagged for a closer look

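Of 40 groups of 4 libraries looked at for members and named genes, 12 held a library that stood apart from the other 3, by its gap to the nearest relative to the range of the group. Chance gives about 1 in 20 such groups, and sparse counts give more.

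Among the members, Muc5b stood apart in the non-LRC library of JV621 (14.4 CPM). Tff2 (18.9 CPM), Muc6 (7.26 CPM) and Agr2 (0.947 CPM) stood apart in the non-LRC library of JV624. Muc6 (0.946 CPM) and Agr2 (0.71 CPM) also did so in the LLRC library of JV621. The Agr2 values rest on 6 counts each.

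Among the named genes of other lists, Muc13 (0.828 CPM) and Muc15 (1.54 CPM) stood apart in the LLRC library of JV621. Xbp1 stood apart in the non-LRC library of JV621 (447 CPM). In the non-LRC library of JV6314, Emcn (122 CPM) and Muc13 (2.96 CPM) were high and Ano1 (45.8 CPM) was low.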

How the results depend on the processing

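No member was called under any of the 19 alternatives run. The count of genes called, 0 in the main test, was 159 with the edgeR exact test, 265 with DESeq2, 73 with the newer form of the quasi-likelihood dispersion, 11 without a filter on low counts, and 0 to 6 with 1 library left out (6 without the non-LRC library of JV602). The median log2 fold change of the members tested, 0.17, was -0.13 with DESeq2 and -0.08 without a filter, both of which test more members. It was 0.01 with scaling to cholangiocyte markers, which was chosen after seeing the data and moved the median of all genes to -0.19, and 0.00 (without the LLRC library of JV602) to 0.39 (without the non-LRC library of JV624) with 1 library left out.

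With the mouse as a replicate block, 0 genes were called (569 at an unadjusted p under 0.05), the log2 fold change of Tff2 was 0.01 and that of Slpi 1.22, and among the 16 genes followed through the alternatives the block changed no other call or direction. With 1 library left out, estimates ranged from -0.76 to 0.50 for Tff2, from -0.04 to 0.24 for Xbp1, from -0.22 to 0.21 for Ano1, from -0.33 to 1.32 for C1galt1 and from -2.66 to -0.15 for Slpi. Scaling to cholangiocyte markers gave -0.12 for Xbp1, -0.07 for Hspa5, -0.00 for Pdia3, -0.11 for Ano1 and -0.06 for C1galt1. DESeq2 size factors gave -0.00 for Xbp1 and -0.06 for C1galt1, and DESeq2 gave -0.05 for C1galt1. limma gave 2.12 for Slpi, -0.03 for Ano1 and 1.49 for C1galt1. The cause of these reversals was not tested.

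Aqp1 passed the threshold under 5 alternatives and Emcn under 2, with the edgeR exact test and DESeq2 among them for both genes. Of the estimates for 16 genes under 19 alternatives, 275 kept their direction and side of the threshold.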
